A study of Mus musculus with 8 samples.

Results

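The genes described here encode the core of bone morphogenetic protein (BMP) and SMAD signalling and its Id target genes. They were the ligand gene Bmp4, the SMAD genes Smad1, Smad5, Smad2, Smad3, Smad4 and Smad7, and the target genes Id1, Id2 and Id3. The 10 genes were taken by name from GENCODE M21, out of 21951 protein-coding genes, and every deposited peak near their transcript starts or in their bodies was collected. A start window ran from 5 kb upstream to 1 kb downstream of any annotated transcript start of a gene, and a peak belonged to it when at least 20 bp lay inside. A gene body peak overlapped the gene by at least 20 bp but no start window.

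BMP ligands bind paired serine/threonine kinase receptors at the cell surface. The activated receptors phosphorylate SMAD1 and SMAD5, while activin, Nodal and TGF-β receptors phosphorylate SMAD2 and SMAD3. Each of these proteins enters the nucleus with the shared partner SMAD4, and SMAD7 blocks both branches. Id genes are classical BMP targets, and their products are helix-loop-helix proteins that hold other transcription factors off DNA. In mouse embryonic stem cells, BMP4 supports self-renewal together with leukemia inhibitory factor (LIF), in part through Id genes.

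Chromatin immunoprecipitation sequencing (ChIP-seq) recovers DNA cross-linked to a protein with an antibody, and a peak is a place where its fragments pile up. All 8 libraries used mouse E14Tg2a, a line of embryonic stem cells that stands for a single genetic background. Pluripotent embryonic stem cells (ESCs) were grown with LIF and gave 1 library each for FGFR1, RXRα (here RXR) and Nur77. Neuronal cells (NCs) were kept for 48 h in 1 µM retinoic acid (RA) without LIF. They gave 1 library each for RXR, Nur77 and the histone variant H3.3 and 2 for FGFR1. The states differ in LIF as well as in RA, so the effects of the 2 cannot be told apart. FGFR1 is a fibroblast growth factor receptor that also has a nuclear form, and RXR and Nur77 are nuclear receptors. The second FGFR1 library from RA was titled as a second experiment, and no source used here says whether it came from a separate culture, so its spread may be technical. The study pooled cells from several plates before immunoprecipitation and named no control library. With 1 library in 6 of the 7 groups, LIF and RA could not be compared by a test, and none was run. The lists hold binding only, so the labelled cell state could not be checked against marker genes.

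Each list gave 3 values that are used below. Fold is the fragment pileup at the summit of a peak over its local background, with 1 fragment added to both, and −log10 p is the caller's value for that summit. The number of fragments at the summit was recovered from these values, as the files state no depth. The lists held 10634 to 46137 peaks, and background density ran from 1.27 fragments per kb for H3.3 up to 7.09 for RXR in LIF. The FGFR1 list from LIF had 2.71 fragments per kb, against 4.16 and 6.78 in FGFR1 replicates 1 and 2 from RA, so a gene without a peak in LIF was not called at the lower depth. Replicate 2 stood apart from the other 7 libraries. Its median peak rested on 27 fragments against 9 to 12 in the others, and its median width was 311 bp against 89 bp in replicate 1. Peaks with a run of 20 bp or more in which purines and pyrimidines alternate, such as a CA repeat (here an alternating tract), made up 1.26% of the list of replicate 2 and 21.1% to 51.7% of the other lists.

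In NCs, FGFR1 had peaks at the starts of more of these genes than RXR, Nur77 or H3.3 had. The same was so over all protein-coding genes. In LIF, 2 of the 10 genes had an FGFR1 peak in the start window, Smad5 and Smad2. In RA, 9 of 10 had one in replicate 1 and 9 of 10 in replicate 2, a mean of 9 ± 0 (SD, n = 2), and they were the same 9 genes, all but Bmp4. Among all protein-coding genes the FGFR1 shares were 19.7% in LIF, 55.9% in replicate 1 and 51.5% in replicate 2. Those of RXR, Nur77 and H3.3 in RA were 26.2%, 30.9% and 17.9%. The members had a median start window of 13023 bp against 8812 bp and 4.5 starts against 3. The windows of Id1, Id2 and Id3 were narrower than the latter median, at 6001 to 7478 bp. The part of window width in the counts was not tested. Within 1 kb of a start, where the study placed the proximal promoter, FGFR1 peaks were called at 2 genes in LIF, 8 in replicate 1 and 9 in replicate 2, against 17.0%, 50.7% and 49.6% of all genes.

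**Figure D1:**
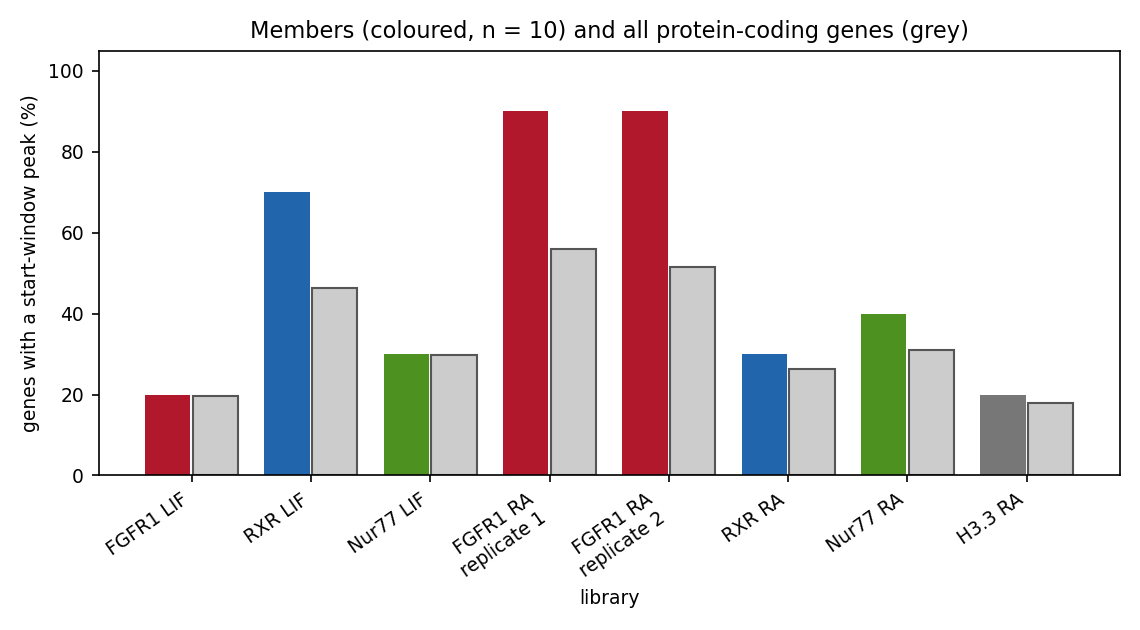
Share of genes with a peak in the start window (%, y axis) in each library (x axis), for the 10 members (coloured bars) and for all 21951 protein-coding genes (grey bars). FGFR1 in RA reached 90.0% of the members in both libraries, while the Nur77 and H3.3 bars and those of FGFR1 in LIF and RXR in RA lie within 10 percentage points of the grey bars beside them.

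Smad1, Smad3, Smad4, Smad7, Id1, Id2 and Id3 had an FGFR1 start-window peak in both RA libraries and none in LIF. These 7 of 10 genes compare with 26.0% of all protein-coding genes. The count depended on the length of the lists. When each list was limited to its 11378 strongest peaks by −log10 p, as many as the FGFR1 list from LIF holds, replicate 1 reached 4 members against 21.5% of all genes and replicate 2 kept 9 against 46.3%. At that length Nur77 in RA reached 3 members, against 12.5%, and RXR in RA 2, against 17.0%. Smad3, Smad4 and Id3, 3 of 10 members, then had a peak in both RA libraries and none in LIF, against 7.91% of all genes.

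RXR had its start-window peaks mostly in LIF. In LIF it was called at 7 members, Smad1, Smad5, Smad2, Smad4, Smad7, Id2 and Id3, and in RA at 3, Smad1, Smad2 and Smad4. The shares of all genes were 46.4% in LIF and 26.2% in RA, so the whole list fell in the same direction, on a background of 7.09 fragments per kb in LIF and 1.87 in RA. The 4 members with an RXR peak in LIF and none in RA were Smad5, Smad7, Id2 and Id3, against 24.5% of all genes. With 11378 peaks per list, RXR reached 3 members in LIF and 2 in RA, against 18.4% and 17.0% of all genes. Within 1 kb of a start it was called at 6 members in LIF and 3 in RA, against 42.5% and 23.3%.

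Nur77 was called at 3 members in LIF, Smad1, Smad2 and Id2, and at 4 in RA, Smad1, Smad5, Smad2 and Smad4. The shares of all genes were 29.8% and 30.9%, and the member counts lay near them. With 11378 peaks per list, Nur77 reached 1 member in LIF and 3 in RA, against 13.5% and 12.5% of all genes. Within 1 kb of a start the member counts were 3 and 3, against 25.5% and 25.8%. H3.3, measured in RA alone, had a start-window peak at Smad1 and Smad7, 2 members against 17.9% of all genes, and 2 within 1 kb against 15.5%.

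**Figure D2:**
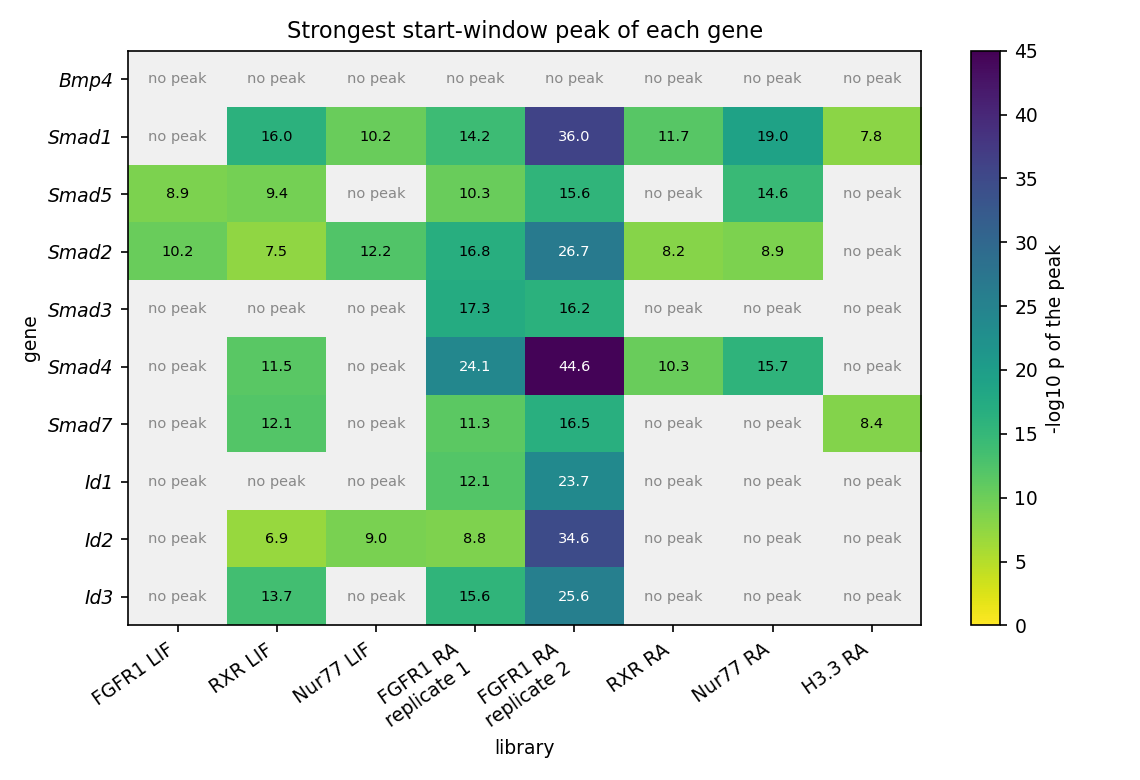
−log10 p (colour and number) of the strongest start-window peak of each gene (rows) in each library (columns). The FGFR1 replicate 2 column runs from 15.6 at Smad5 to 44.6 at Smad4, and the Bmp4 row is empty.

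Promoter sequences are shown for the 5 members whose entry left a printable stretch, from Bmp4 with no peak to Smad5 with FGFR1 in both states. RefSeq's promoter table for GRCm38.p6, the assembly called mm10 in the lists, holds 250 bases before and 50 bases after each start and matched 6 of the 10 members. No entry was matched for Smad2, Smad4, Smad7 and Id1. The stretches below are the parts before a start that no annotated exon covers, written 5′ to 3′ on the strand of the gene. Capitals mark 4 words searched on both strands: GGGCGG (GC box), GGCGCC (a GC-rich element bound by BMP SMADs), CACGTG (E-box) and CCGGAAG (ETS site). AGGTCA (the hexamer bound by nuclear receptors), GTCTAGAC (palindromic SMAD element) and TGACGTCA (cAMP response element) were searched too. GGGCGG can lie within longer GC runs, and no word searched contains another.

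Bmp4, chr14:46390670-46390919, minus strand, the promoter with no peak in any list: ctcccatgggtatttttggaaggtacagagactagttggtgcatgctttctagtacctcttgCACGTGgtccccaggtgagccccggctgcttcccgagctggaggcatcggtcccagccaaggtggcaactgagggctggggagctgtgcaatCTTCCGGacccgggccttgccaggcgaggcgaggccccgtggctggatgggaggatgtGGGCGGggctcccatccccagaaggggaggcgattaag
Smad1, chr8:79399519-79399678, minus strand, overlapped by peaks of FGFR1 in RA, RXR in LIF and H3.3: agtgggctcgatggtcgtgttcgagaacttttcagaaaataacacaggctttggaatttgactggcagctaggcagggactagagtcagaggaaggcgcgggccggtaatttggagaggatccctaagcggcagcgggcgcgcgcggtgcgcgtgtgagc
Smad5, chr13:56702760-56703009, plus strand, overlapped by all 3 FGFR1 lists and by RXR in LIF: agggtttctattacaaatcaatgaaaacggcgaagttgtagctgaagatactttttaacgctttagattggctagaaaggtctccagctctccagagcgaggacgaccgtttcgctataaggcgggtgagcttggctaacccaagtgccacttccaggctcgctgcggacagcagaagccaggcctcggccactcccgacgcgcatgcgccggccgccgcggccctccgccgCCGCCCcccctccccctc
Smad3, chr9:63757995-63758244, minus strand, overlapped by both FGFR1 lists from RA alone: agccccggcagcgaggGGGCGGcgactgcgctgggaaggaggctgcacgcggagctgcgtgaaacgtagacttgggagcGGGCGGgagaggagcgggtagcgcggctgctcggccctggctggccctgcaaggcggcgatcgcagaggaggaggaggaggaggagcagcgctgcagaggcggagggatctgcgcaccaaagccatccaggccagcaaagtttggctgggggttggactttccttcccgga
Id2, chr12:25096254-25096342, minus strand, overlapped by FGFR1 replicate 2 from RA alone: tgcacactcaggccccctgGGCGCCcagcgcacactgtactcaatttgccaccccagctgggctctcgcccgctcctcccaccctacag

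The Bmp4 stretch held an E-box, an ETS site and a GC box. Smad3 and Smad5 held a GC box, Id2 held the GC-rich element, and the Smad1 stretch held none of the words. Neither the nuclear receptor hexamer nor the palindromic SMAD element or the cAMP response element was found in these stretches. In the whole entries, which include the part not printed, Smad1, Smad3, Smad5, Id2, Id3 and Bmp4 held a GC box, Smad5 and Id2 the GC-rich element, and Bmp4 also the E-box and the ETS site. The comparison is with whole entries: across all 32851 promoters of the table, 35.7% held the GC box, 16.3% the nuclear receptor hexamer, 11.9% the GC-rich element, 8.86% the ETS site, 7.15% the E-box, 1.79% the cAMP response element and 0.213% the palindromic SMAD element.

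Bmp4 is the only ligand among the members (chr14:46383520-46390669, minus strand). It had no peak in any of the 8 lists, either in its start window of 9366 bp or in its body of 7150 bp. Among all protein-coding genes, 29.8% had no start-window peak in any list.

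Smad1 (chr8:79338395-79399518, minus strand) encodes the BMP-activated SMAD best known in pluripotent cells, and it was the member with the most factors at 1 place. Positions relative to a start are given in bp, negative before it. At the first exon, RXR in LIF gave a peak at chr8:79399329-79399574 with a fold of 8.04 and 20 fragments at its summit, and Nur77 in LIF gave one at chr8:79399344-79399519 with a fold of 6.29 and 13 fragments. FGFR1 had no peak there in LIF. In RA, FGFR1 replicate 1 gave chr8:79399324-79399542 with a fold of 8.06 and 16 fragments, and replicate 2 gave chr8:79399329-79399641 with a fold of 12.6 and 40 fragments. RXR in RA gave chr8:79399261-79399416 with a fold of 7.40 and 12 fragments, and H3.3 gave chr8:79399265-79399542 with a fold of 5.61. The H3.3 peak was weak, with 8 fragments, and stood at 90.9% of its list when ranked from the strongest peak. The summits of RXR and Nur77 in LIF, of both FGFR1 libraries and of H3.3 lay between 39 and 61 bp after the start, and that of RXR in RA at 215 bp. All 6 peaks overlapped one another, so that 6 of the 8 libraries marked the same promoter, with every summit in an untranslated exon. The Nur77 library from RA was not among them. Replicate 1 had 2 further FGFR1 peaks that replicate 2 lacked, chr8:79399194-79399267 beside the first exon with 16 fragments and chr8:79352051-79352124 in an intron, −2040 bp from an internal start, with 13 fragments and a fold of 8.32.

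Nur77 in RA had its Smad1 start-window peak elsewhere, at chr8:79361527-79361634 in an intron, −4917 bp from an internal start, with a fold of 10.4 and 18 fragments. The place is shown because it holds an alternating tract, given in capitals, on the strand of the gene.

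Smad1 intron, chr8:79361527-79361634, minus strand, Nur77 in RA: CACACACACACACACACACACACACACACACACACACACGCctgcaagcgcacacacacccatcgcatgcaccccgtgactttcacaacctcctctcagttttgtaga

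The tract spanned 41 bp. Tracts of this kind occurred in 14.0% of Nur77 start-window peaks in RA over all protein-coding genes and in 11.7% of those in LIF, and the part of the repeat in the call was not tested.

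Smad5 (chr13:56703010-56742377, plus strand), the second BMP-activated SMAD, had FGFR1 at its promoter in both states. The peaks were chr13:56702886-56702999 in LIF with a fold of 6.18 and 9 fragments, chr13:56702895-56702992 in replicate 1 with a fold of 6.87 and 10 fragments, and chr13:56702803-56703243 in replicate 2 with a fold of 7.26 and 22 fragments. Their summits lay at −92, −51 and −109 bp, within the Smad5 promoter printed above. RXR in LIF gave chr13:56702918-56702997 with a fold of 6.23, overlapping all 3, and RXR in RA gave no peak. The mean FGFR1 fold in RA was 7.06 ± 0.282 (SD, n = 2). Background at the summit was 2.17 fragments for replicate 2, against 0.602 for replicate 1 and 0.619 for the LIF library. The added fragment therefore lowered these folds unequally, and their closeness is not read as equal binding. The 4 start-window peaks of Nur77 in RA lay at other starts, chr13:56732392-56732513 having the highest −log10 p, 14.6. The other 3 had folds of 6.23, 7.66 and 8.46, and 2 of the 4 held an alternating tract.

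Smad2 (chr18:76241580-76310963, plus strand), which carries activin, Nodal and TGF-β signals, was the other member bound by FGFR1 in LIF. The LIF peak at chr18:76241397-76241550 had a fold of 6.91 and 9 fragments. It was overlapped in RA by replicate 1 at chr18:76241438-76241556 with a fold of 6.84 and 11 fragments, by replicate 2 at chr18:76241277-76241593 with a fold of 11.0 and 30 fragments, and by Nur77 at chr18:76241378-76241509 with a fold of 6.17. Near another start, RXR gave chr18:76241928-76242033 in LIF with a fold of 5.21 and chr18:76241924-76242122 in RA with a fold of 5.86. Replicate 1 alone of the FGFR1 libraries had a peak there, at chr18:76241949-76242045 with a fold of 9.61. A further peak of replicate 1, at chr18:76242253-76242324 with a fold of 7.35, was overlapped by none. Nur77 in LIF lay between the first places, at chr18:76241713-76241807 with a fold of 7.68, and also overlapped no other peak. Smad2 and Smad1 were the members with start-window peaks in most lists, 7 of 8 each.

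Smad3 (chr9:63646767-63757994, minus strand), the partner of SMAD2 in that branch, had start-window peaks of FGFR1 in RA alone. At the first start, replicate 1 gave chr9:63758049-63758221 with a fold of 7.69 and 16 fragments, and replicate 2 gave chr9:63757929-63758229 with a fold of 6.88 and 25 fragments, with summits at −170 and −119 bp. Each library had a further peak that the other lacked. In replicate 1 it lay in an intron at chr9:63716274-63716380, −4352 bp from an internal start, with the higher fold of 9.66. In replicate 2 it lay at chr9:63758307-63758468 with a fold of 5.31. RXR and Nur77 in either state and H3.3 in RA had no start-window peak at Smad3. Nur77 and H3.3 in RA shared an intronic peak of the gene body at chr9:63702013-63702132, which held an alternating tract of 36 bp.

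Smad4 (chr18:73639009-73703780, minus strand), the partner of both branches, had the strongest FGFR1 peaks of the members. Replicate 1 gave chr18:73703645-73704040 with a fold of 12.6, 21 fragments and −log10 p of 24.1, and replicate 2 gave chr18:73703638-73704208 with a fold of 13.1, 51 fragments and −log10 p of 44.6. These stood in the top 5.88% and 12.8% of their lists by −log10 p. The mean fold was 12.9 ± 0.371 (SD, n = 2), and the summits lay 253 bp apart, at 33 and −220 bp. FGFR1 in LIF had no peak at Smad4. RXR in LIF had chr18:73703642-73703798 with a fold of 7.12 and 13 fragments. RXR in RA had chr18:73703700-73703844 with a fold of 6.93 and 9 fragments, and Nur77 in RA had chr18:73703705-73703827 with a fold of 9.36 and 14 fragments, both with the summit at −9 bp. Smad4 was the only member at which FGFR1 in both libraries, RXR and Nur77 all overlapped in RA. Away from the first exon, replicate 1 had an intronic peak at chr18:73650900-73650992 with a fold of 9.10 and Nur77 in RA had chr18:73662662-73662753 with a fold of 4.41, and neither was overlapped by another list.

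Smad7 (chr18:75367529-75395935, plus strand) encodes the inhibitory SMAD. Its FGFR1 peaks in RA lay at different starts in the 2 libraries. Replicate 1 gave chr18:75369290-75369443 with a fold of 6.76 and 14 fragments, overlapping RXR in LIF at chr18:75369384-75369463 with a fold of 6.27 and 18 fragments. Replicate 2 gave chr18:75367328-75367496 with a fold of 6.60 and 27 fragments and chr18:75366491-75367111 with a fold of 5.19. The summit of the latter, at −570 bp, lay within another annotated gene, Gm20544. No Smad7 peak of replicate 1 overlapped one of replicate 2, so binding repeated at the gene and not at a site. H3.3 gave chr18:75369005-75369124 with a fold of 5.88. Near the 3′ end of the gene, FGFR1 replicate 1, RXR and H3.3 in RA shared a gene body peak at chr18:75394240-75394381 in H3.3. The word AGGTCA was found in the 100 bp about all 3 summits. These stretches overlap, so it may be 1 copy. Over all peaks it was found at 5.09% of summits for FGFR1 replicate 1, 3.46% for RXR in RA and 3.08% for H3.3.

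Id1 (chr2:152736251-152737410, plus strand), the Id gene most used as a readout of BMP signalling, had peaks in the 2 FGFR1 libraries from RA alone. Replicate 1 gave chr2:152736316-152736566 with a fold of 7.45 and 13 fragments, and replicate 2 gave chr2:152736247-152736439 with a fold of 8.11 and 35 fragments. The summits lay at 178 and 55 bp, 123 bp apart, and the mean fold was 7.78 ± 0.460 (SD, n = 2). With 11378 peaks per list, the Id1 peak of replicate 1 was no longer included. Id1 and Smad3 were the members with start-window peaks in these 2 lists and in no other, a pattern shown by 3.34% of all protein-coding genes.

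Id3 (chr4:136143497-136145755, plus strand) had the same place bound by RXR in LIF and by FGFR1 in RA. RXR in LIF gave chr4:136143884-136144039 with a fold of 7.19 and 18 fragments. FGFR1 in RA gave chr4:136143883-136143978 in replicate 1 with a fold of 8.88 and 16 fragments, and chr4:136143598-136144140 in replicate 2 with a fold of 8.72 and 36 fragments. The mean fold was 8.80 ± 0.111 (SD, n = 2), and the 3 summits lay at 70, 82 and −21 bp. No other list had a peak at Id3.

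Id2 (chr12:25093799-25097140, minus strand) had FGFR1 in both RA libraries at different places. Replicate 2 gave chr12:25095952-25096477 over a start, with its summit at 19 bp, a fold of 9.22, 50 fragments and −log10 p of 34.6. Replicate 1 had no peak there. It gave chr12:25098897-25098996 with a fold of 5.30 and chr12:25101108-25101179 with a fold of 5.97, at −1764 and −3991 bp and with 9 and 10 fragments. These stood at 94.0% and 83.2% of the list when ranked from its strongest peak. The nearer of them overlapped RXR in LIF at chr12:25098906-25098991, itself with a fold of 4.65. Nur77 in LIF gave chr12:25095675-25095765 in a coding exon with a fold of 5.75. By the −log10 p of its strongest start-window peak, Id2 was last of the 9 genes in replicate 1, at 8.76, and the third in replicate 2. The upstream peak of replicate 1 held the GC-rich element, in capitals.

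Id2 upstream, chr12:25098897-25098996, minus strand, FGFR1 replicate 1 in RA: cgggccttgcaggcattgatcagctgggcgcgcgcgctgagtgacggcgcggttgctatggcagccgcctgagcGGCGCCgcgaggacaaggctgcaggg

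**Figure D3:**
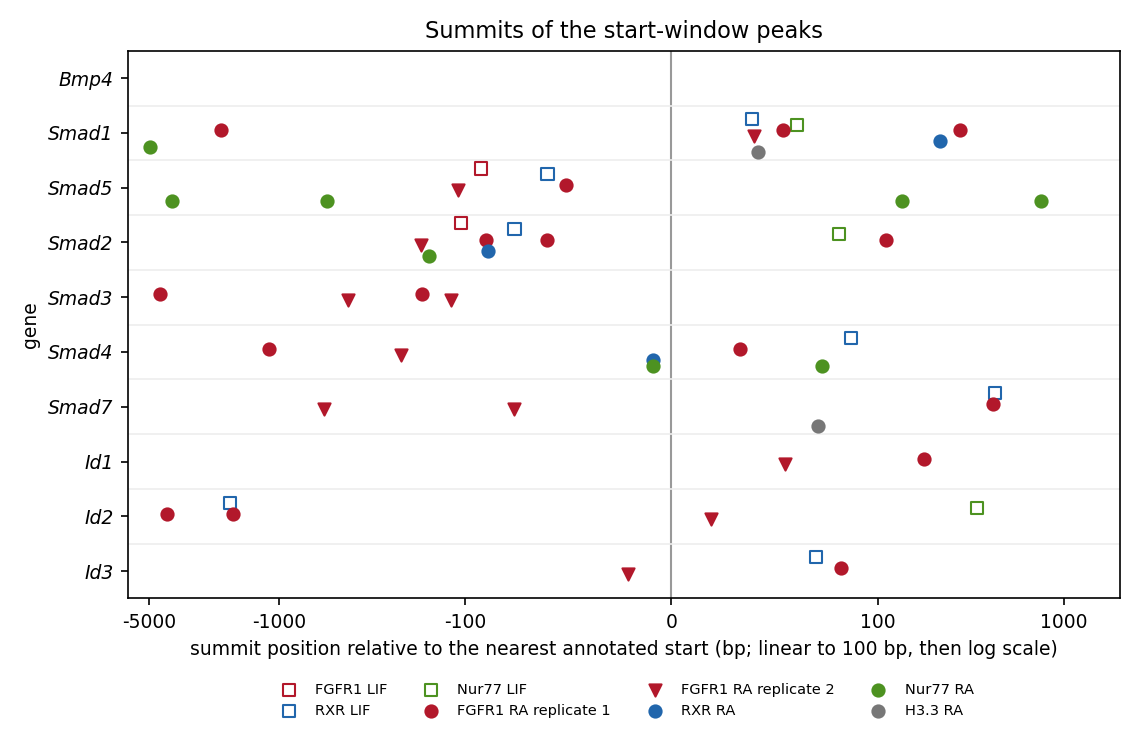
Summit position of every start-window peak (x axis, bp from the nearest annotated start, negative before it, linear to 100 bp and logarithmic beyond) for each gene (y axis), with open squares for LIF, filled circles for RA and triangles for FGFR1 replicate 2. At Smad7 and Id2 the circles and triangles of FGFR1 lie apart, and at Smad1 6 libraries gather between 39 and 215 bp.

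The 2 FGFR1 libraries from RA were then compared by place. Replicate 1 had 20 peaks at the members, 16 in start windows and 4 in gene bodies, and replicate 2 had 11, all in start windows. Overlapping peaks of the 2 libraries, sharing at least 1 bp, were found at 7 genes, Smad1, Smad5, Smad2, Smad3, Smad4, Id1 and Id3, with 1 pair each. That is 7 of the 16 start-window peaks of replicate 1, against 46.9% over all protein-coding genes, and 7 of the 11 of replicate 2, against 61.9%. The distance between paired summits was 14 bp at Smad1, 51 bp at Smad3, 58 bp at Smad5, 83 bp at Smad2, 103 bp at Id3, 123 bp at Id1 and 253 bp at Smad4.

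Over these 7 pairs the mean fold was highest at Smad4, at 12.9 ± 0.371 (SD, n = 2), and lowest at Smad5, at 7.06 ± 0.282. Between them stood Smad1 at 10.3 ± 3.20, Smad2 at 8.93 ± 2.96, Id3 at 8.80 ± 0.111, Id1 at 7.78 ± 0.460 and Smad3 at 7.28 ± 0.572. The values of Smad1, Smad2 and Id3 overlapped between neighbours in this order, as did those of Id1, Smad3 and Smad5, while both values of Id3 lay above both of Id1. The lower value of Smad4 and the higher of Smad1 were both 12.6. The fold was higher in replicate 2 at 5 of the 7 pairs, at Smad1 by 12.6 to 8.06. The fragment added to both sides lowers fold more where the background is low. Background was lower in replicate 1 at all 7 pairs, as at Id3 with 0.914 fragments against 3.24. Neither the order of the 2 libraries nor their SD is therefore read as a difference in binding. Fold and −log10 p both depend on depth, so they rank peaks within a list and do not measure occupancy between lists.

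**Figure D4:**
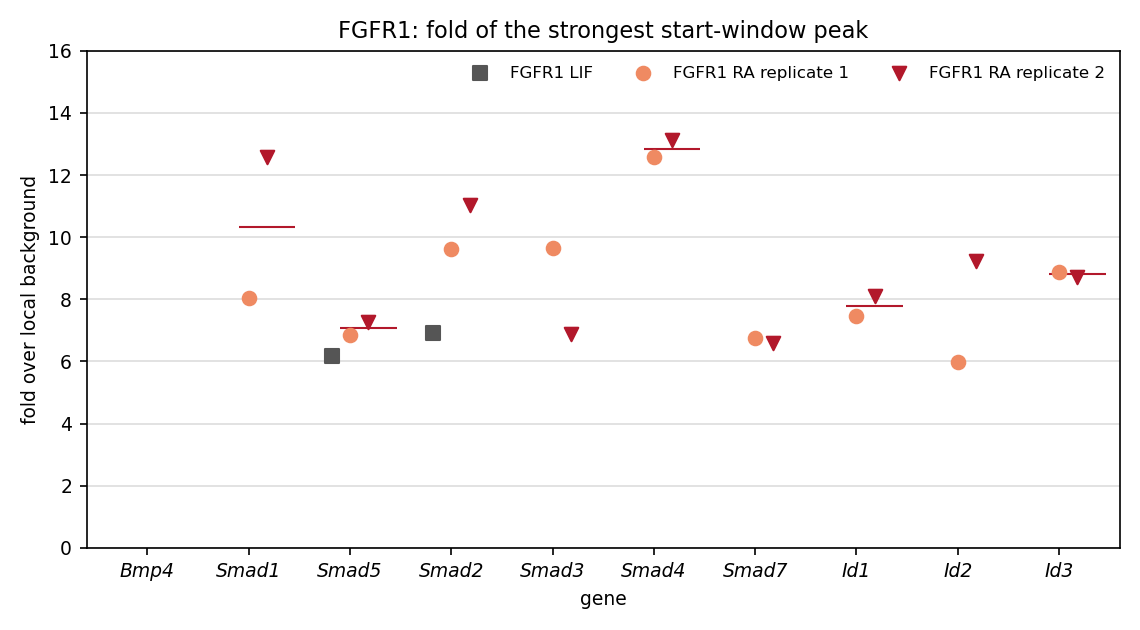
Fold over local background (y axis) of the strongest FGFR1 start-window peak of each gene (x axis) in LIF and in RA replicates 1 and 2, with a line at the mean of the RA libraries for the 5 genes whose strongest peaks overlap. Smad4 is highest in both RA libraries, at 12.6 and 13.1, and LIF has points at Smad5 and Smad2 alone.

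The peaks already present in LIF were followed into RA. Both FGFR1 peaks from LIF, at Smad5 and Smad2, were overlapped by a peak in each RA library. Over the start-window peaks of all protein-coding genes, 76.7% of those of FGFR1 in LIF were overlapped by replicate 1 and 69.0% by replicate 2. Of the 7 start-window peaks of RXR in LIF, 3 were overlapped by RXR in RA, at Smad1, Smad2 and Smad4, against 27.7% over all genes. None of the 3 start-window peaks of Nur77 in LIF was overlapped by Nur77 in RA, against 35.2% over all genes. All 7 start-window peaks of RXR in LIF were overlapped by FGFR1 replicate 1, 4 by replicate 2, at Smad1, Smad5, Smad4 and Id3, and 1 by FGFR1 in LIF, at Smad5. Over the start-window peaks of RXR in LIF at all protein-coding genes, 58.7% were overlapped by replicate 1, 50.1% by replicate 2 and 20.2% by FGFR1 in LIF.

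Within RA, FGFR1 peaks were compared with those of the nuclear receptors, with the shares over the start-window peaks of all protein-coding genes beside them. RXR overlapped 4 of the 16 start-window peaks of FGFR1 replicate 1, against 24.1%, and 2 of the 11 of replicate 2, against 25.1%. Nur77 overlapped 2 of the 16, against 26.6%, and 2 of the 11, against 25.4%. Replicate 1 overlapped all 3 RXR start-window peaks, against 72.2%, and 2 of the 8 of Nur77, against 63.9%. Smad3, Smad7, Id1, Id2 and Id3, 5 of 10 members, had FGFR1 start-window peaks in both RA libraries and no RXR or Nur77 peak in the start window in RA, against 14.0% of all genes. The 3 Id genes were all in this group, and none of them had a peak of RXR, Nur77 or H3.3 in RA at all. Over all genes, only 26.2%, 30.9% and 17.9% had a start-window peak in these lists, so a gene without one was common. The Id genes also had short start windows, 6001 to 7478 bp against a median of 8812 bp over all genes. The part of window length was not tested. In LIF, 1 of the 2 FGFR1 peaks overlapped RXR, at Smad5, and none overlapped Nur77.

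The 52 start-window peaks of the members lay upstream of the transcript in 19 cases by the position of the summit, in an untranslated exon in 15, in an intron in 10 and in a coding exon in 8. An alternating tract was present in 3 of them, all of Nur77 in RA. None of the start-window peaks of FGFR1 held one. Over the start-window peaks of all protein-coding genes, 15.0% held one for FGFR1 in LIF, 5.73% in replicate 1 and 1.00% in replicate 2. In the 100 bp about the summits, the GC box was found at 22 of the 52, in 7 genes, the 6 SMAD genes and Id2, the GC-rich BMP SMAD element at 10, at Smad1, Smad2, Smad4, Smad7 and Id2, and the E-box at 2, at Smad2 and Id2. The nuclear receptor hexamer, palindromic SMAD element, cAMP response element and ETS site were found at none. Overlapping peaks of different libraries were each counted, as at the first exon of Smad1, so the 52 peaks stand for fewer places. The shares over all genes were counted in the same way. Over the start-window peaks of all protein-coding genes in the 8 lists, 26.1% held the GC box at the summit, 9.74% the GC-rich element, 5.27% the E-box, 4.11% the ETS site, 3.91% the nuclear receptor hexamer, 1.26% the cAMP response element and 0.0518% the palindromic SMAD element.

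Gene body peaks outside the start windows were few, 16 in all. Members with such a peak numbered 0 in FGFR1 from LIF, 1 in RXR and 2 in Nur77 from LIF, 3 in FGFR1 replicate 1, 0 in replicate 2, 2 in RXR, 3 in Nur77 and 3 in H3.3 from RA. The shares of all genes were 11.2%, 22.8%, 20.6%, 31.1%, 5.28%, 14.2%, 23.0% and 11.4% in that order. Of the 16 peaks 6 held an alternating tract, none of them of FGFR1. The 4 gene body peaks of replicate 1 were not found in replicate 2. They lay at Smad7, as described, at Smad4 (chr18:73670788-73670902, fold 5.39) and at Smad3 (chr9:63687977-63688136, fold 6.24, and chr9:63699366-63699443, fold 5.49). RXR had intronic peaks at Smad1 in LIF (chr8:79347942-79348047, fold 5.69) and at Smad4 in RA (chr18:73698584-73698706, fold 7.10). Nur77 had them at Smad3 in LIF (chr9:63728382-63728468, fold 5.05) and at Smad5 in RA (chr13:56710694-56710785, fold 6.66). The median length of the members was 33887.5 bp against 17403 bp over all protein-coding genes. Bmp4, Id1, Id2 and Id3 were shorter than the latter, at 1160 to 7150 bp.

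The rest of the pathway was read as a list of 35 other genes, sorted by role. FGFR1 was called in the start window of 6 in LIF, 24 in replicate 1 and 21 in replicate 2, against 19.7%, 55.9% and 51.5% of all genes. RXR was called at 21 in LIF and 9 in RA, against 46.4% and 26.2%. Nur77 was called at 12 and 8, against 29.8% and 30.9%, and H3.3 at 4, against 17.9%. An FGFR1 peak in both RA libraries and none in LIF was found at 12 of the 35, 34.3%, against the 26.0% of all genes and 7 of the 10 members. By role these were 2 of 8 ligands, 2 of 9 receptors, 2 of 6 extracellular inhibitors, 5 of 8 intracellular inhibitors and partners, and 1 of 4 targets.

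The ligands of this kind were Bmp6 and Bmp7, and the receptors were Bmpr2, the type II BMP receptor, and Tgfbr1, the type I TGF-β receptor. Bmpr2 had an FGFR1 fold of 10.7 in replicate 1 and 14.6 in replicate 2, above that of Smad4 in the second library, and Tgfbr1 had 11.0 and 11.8. The extracellular inhibitors were Chrd, which binds BMPs, and Lefty2, which blocks Nodal. The intracellular genes were the inhibitory Smad6, the ubiquitin ligase gene Smurf1, the corepressor genes Ski and Tgif1, and the pseudoreceptor gene Bambi. Of these Bambi had the highest fold in replicate 2, 12.4 against 6.60 in replicate 1, and Smad6 had 5.18 in replicate 1 and 6.39 in replicate 2. The target was Msx2. At Bmp7, Chrd, Lefty2, Smad6, Tgif1 and Msx2 the strongest peaks of the RA libraries did not overlap, so the pattern describes the gene and not a site. FGFR1 in LIF was called at the ligand gene Tgfb2, the receptor genes Bmpr1a, Acvr1 and Acvr2a, the BMP inhibitor gene Nog and the ubiquitin ligase gene Smurf2. Acvr2a and Smurf2 kept a start-window peak in both RA libraries, as Smad5 and Smad2 did. Bmp5, Gdf3 and Lefty1 had no start-window peak in any list, as was the case for Bmp4.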

How the data were processed

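ChIP-seq peak lists of 8 libraries were analysed. The authors aligned reads to mm10 with Bowtie 1.0, keeping uniquely placed reads, and called peaks in each library with MACS2 at a p limit of 1e-05. The deposited fold is a ratio of summit pileup to local background. Deposited −log10 p and q values describe the summit. The deposited score is the −log10 p times 10, cut to a whole number, and the other deposited column gives the summit offset.

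Whole fragments at the summit were found from fold and −log10 p with the Poisson tail, and 100% of peaks were solved within 0.002. Background density in fragments per kb served as depth. The solver was tested on simulated data. Genes and starts came from GENCODE M21, while the study used UCSC known genes. All peaks on chromosomes 1 to 19, X and Y lay within the GRCm38.p6 lengths. Peaks were matched at 1 bp and windows at 20 bp. Python 3.11.15, numpy 2.4.6, pandas 2.3.3, scipy 1.17.1, pysam 0.24.0 and matplotlib 3.10.9 were used.

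The members and lists were chosen with earlier results of these data known. All 10 members were named. Pathway genes were named if FGFR1 was called in both RA libraries and not in LIF, if it was called in LIF, or if no list held a start-window peak. No p-value was computed. Alternatives were minimum values of 10 for −log10 p, 2 for −log10 q and 5 for fold, 11378 peaks per list (10634 for H3.3), windows of 1 kb to either side, summits in the window, protein-coding starts, peaks without tracts, each FGFR1 replicate left out, and pairs matched by 50% of the shorter peak or summits within 100 bp. The place and sequence of 1 gene body site are not reported here.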

Additional observations from a re-analysis of the deposited data

Results flagged for a closer look

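FGFR1 and RXR counts moved in opposite directions between LIF and RA, at these genes and over all protein-coding genes. The number of members with a start-window peak rose by 7 for FGFR1, from 2 in LIF to 9 in each RA library, and fell by 4 for RXR, from 7 to 3. Over all genes, FGFR1 went from 19.7% to 55.9% and 51.5%, and RXR from 46.4% to 26.2%. With 11378 peaks per list, FGFR1 went from 2 members in LIF to 4 in replicate 1 and 9 in replicate 2. Over all genes it went from 19.7% to 21.5% and 46.3%. RXR went from 3 members to 2 at that length, and over all genes from 18.4% to 17.0%. Background density was 2.71 fragments per kb for FGFR1 in LIF and 4.16 and 6.78 in RA. For RXR it was 7.09 in LIF and 1.87 in RA, and the part of depth in the counts was not tested. RXR had 1 library in each state and FGFR1 had 1 in LIF, so the difference was not tested.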

How the results depend on the processing

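Of the recomputed counts of start-window peaks and their differences, 94 stayed within 1.5 times the reported value, 14 moved and none reversed. Some of the 94 could not move. The −log10 q limit of 2 removed no member peak, and equal list length shortened neither the FGFR1 list from LIF nor that of H3.3. With 11378 peaks per list, FGFR1 replicate 1 reached 4 members, RXR in LIF 3 and Nur77 in LIF 1. The members with FGFR1 in both RA libraries and none in LIF then numbered 3. The differences between RA and LIF became 4.5 for FGFR1, −1 for RXR and 2 for Nur77. At a −log10 p of at least 10, FGFR1 in LIF was left with 1 member, RXR in LIF with 4 and H3.3 with 0, and the RXR difference was −2. Members with FGFR1 in both RA libraries and none in LIF still numbered 7 at that limit, but Smad5 took the place of Id2. Within 1 kb of a start Id2 also dropped out, leaving 6. A steady count can therefore hide a change of genes. The Nur77 difference was 0 within 1 kb of a start, with protein-coding starts and without tracts. Without FGFR1 replicate 1 or 2, the RA count was 9 to 9 and the difference from LIF 7 to 7. Of further values, for gene bodies and replicate pairs, 40 stayed and 10 moved, and summits within 100 bp left 4 of 7 pairs. No cause was tested. No paired analysis was possible because groups other than FGFR1 in RA have 1 library, the titles pair no libraries across groups, and no result comes from a test. Depth differed between lists, the shallowest having 1.27 background fragments per kb, and its part in the counts was not tested. A gene without a peak was not called at the depth of its list.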
